A study of Mus musculus with 6 samples.

Results

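Among the 6 pools of inguinal white adipose tissue (IngWAT) sequenced in the study, 3 carried a lymphocyte signal and 3 carried almost none, and the 2 sets were compared here. The rich pools were floxed replicate 1, H3atKO replicate 1 and H3atKO replicate 3, and the poor pools were floxed replicate 2, floxed replicate 3 and H3atKO replicate 2. They were chosen on high or low measured levels of B and T cell transcripts, with 3 genes as markers. These were *Cd79a*, a B cell receptor subunit, *Cd3e*, a T cell receptor subunit, and *Ccr7*, the receptor that guides lymphocytes into lymph nodes. Since every gene was measured in the same pools that made the choice, all differences between rich and poor pools are descriptions, with no test.

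The study asked what the loss of the histone deacetylase gene *Hdac3* in fat does to the white fat transcriptome. Floxed mice, which carry *Hdac3* alleles flanked by loxP sites and no Cre, were the controls. H3atKO mice carried the same alleles and a Cre transgene driven by the *Adipoq* (adiponectin) promoter, which is active in adipocytes. All mice were labelled strain C57Bl6 (the Cre line is listed as B6:FVB), were 5 to 9 months old and ate chow. Each library was made from 500 ng of RNA pooled from 2 or 3 mice of 1 genotype, with 3 pools per genotype. In bulk RNA, fewer cells of a type and less RNA per cell cannot be told apart.

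The inguinal fat pad of the mouse surrounds a lymph node. In a lymph node, B cells gather in follicles and T cells in the zones around them, and both enter from the blood through high endothelial venules, whose cells display sugar-coated ligands that slow passing lymphocytes. Stromal cells and venules draw the cells in with the CCR7 ligands CCL19 and CCL21 and the CXCR5 ligand CXCL13, and lymph arrives through vessels lined by lymphatic endothelium.

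The DNA just upstream of the B cell and T cell genes is shown first because these genes stood higher together in the rich pools. Of the 56 genes in the B cell and T cell lists, 35 had an entry in the RefSeq table of starts (build GRCm38.p6). The 250 bases before every listed start were searched on both strands. A match before any start counted for a gene, so genes with several starts, such as *Lck*, had more windows in which to match. The stretches before *Cd79a* (chr7:24897247-24897496, plus strand) and *Cd3e* (chr9:45009612-45009861, minus strand) are printed 5′ to 3′ on the strand of the gene, with the letters AGGAAGT or their reverse complement ACTTCCT, a common form of the site bound by ETS factors, in capitals.
Cd79a: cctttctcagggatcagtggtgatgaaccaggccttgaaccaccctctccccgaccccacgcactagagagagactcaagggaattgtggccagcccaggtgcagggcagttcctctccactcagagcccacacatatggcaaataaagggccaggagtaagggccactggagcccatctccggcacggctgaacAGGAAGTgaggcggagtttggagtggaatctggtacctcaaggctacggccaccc
Cd3e: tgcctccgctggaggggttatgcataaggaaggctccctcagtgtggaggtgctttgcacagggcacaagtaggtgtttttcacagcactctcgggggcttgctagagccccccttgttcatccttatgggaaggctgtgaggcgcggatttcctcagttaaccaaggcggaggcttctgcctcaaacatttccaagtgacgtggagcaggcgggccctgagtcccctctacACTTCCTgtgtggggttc
The letters were found before 6 of 17 B cell genes (*Cd79a*, *Fcrl1*, *Cd37*, *Vpreb3*, *Cd72* and *Blnk*) and 7 of 18 T cell genes (*Cd3d*, *Cd3e*, *Cd247*, *Cd5*, *Lck*, *Lef1* and *Il7r*), against 8.8% of the 27025 genes in the table. They were absent from the windows of the 15 lymph node stroma genes and the 8 skeletal muscle genes with an entry. Lists this small can hold no match at a share of 8.8%, so this sets no list apart. This string was singled out after the matches of 14 strings had been counted. The other 13 were the E box CACCTG, another E box with the letters CATCTG, the octamer ATTTGCAT, the RUNX core TGTGGT, the TCF/LEF-type string CTTTGAA, the Ikaros-type string GGGAANCCC, a further string with the letters TAAGTGCC, and 6 longer strings given by name: the EBF palindrome, the ETS-IRF composite in 2 spacings, and 3 nested forms of the NF-kappaB site. Of these, CACCTG was found before 9 of 17 B cell and 7 of 18 T cell genes, against 19.4% of all genes, the octamer before 2 B cell genes and no T cell gene, against 1.81%, and the EBF palindrome before 1 B cell gene, *Cd22*, against 0.914%. A match describes the letters in these windows and no more.

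Counts on genes ranged from 23865507 to 35200685 per pool, and levels are given as cpm, the counts scaled to a TMM-adjusted library, on which 3 counts correspond to between 0.0659 and 0.190 cpm. The targeted gene, *Hdac3*, was at 68.9, 80.3 and 65.8 cpm in the floxed pools and at 27.4, 21.1 and 12.9 cpm in the H3atKO pools. It was 1.83 lower in H3atKO pools on the log2 scale (SE 0.32, limma voom, adjusted p = 0.0213), and the call was lost (adjusted p up to 0.107) when any pool but floxed replicate 3 was left out. Between rich and poor pools the fitted difference of *Hdac3* was -0.09. The fat marker *Adipoq* was between 1265.8 and 2875.9 cpm in all 6 pools. The pools also differed in ways that went with genotype: transcripts of the mitochondrial genome made up 6.915% to 12.87% of counts in floxed and 26.87% to 35.29% in H3atKO pools, and reads with several places 28.32% to 35.16% and 43.79% to 45.46% of alignments. All pools carried the Y-linked *Ddx3y* (96.0 to 516 cpm) and at most 0.632 cpm of *Xist*.

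In what follows the rich pools are always given in the order floxed 1, H3atKO 1, H3atKO 3 and the poor pools in the order floxed 2, floxed 3, H3atKO 2. *Cd79a* was at 23.6, 13.4 and 4.49 cpm in the rich pools and at 0.457, 0.267 and 0.0510 cpm in the poor pools, the last of which is 1 count. *Cd3e* was at 5.71, 7.99 and 4.11 cpm against 0.769, 0.535 and 0.969 cpm, and *Ccr7* at 7.42, 15.7 and 5.25 cpm against 0.361, 0.486 and 0.306 cpm. The 3 genes together summed to 36.7, 37.1 and 13.8 cpm in the rich and 1.59, 1.29 and 1.33 cpm in the poor pools. The pool just inside the rich set was therefore H3atKO replicate 3, and the pool just outside it was floxed replicate 2. Poor pools were low but not at 0, since 19 to 32 counts of *Cd3e* were found in each.

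Replicate numbers followed the split in part, since both pools numbered 1 were rich and both numbered 2 were poor. Of the pools numbered 3, the floxed one was poor and the H3atKO one rich. The rich pools were 1 of 3 floxed and 2 of 3 H3atKO pools, so the set of rich pools was not balanced over the genotypes, and genotype entered each fitted difference as a covariate.

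A gene is said to stand above, or below, where every rich pool lay above, or below, every poor pool inside each genotype. Over the whole table, 1564 of 14967 tested genes (10.4%) stood above, 890 of them (5.95%) with a fitted difference of at least 1 on the log2 scale, and 1368 (9.14%) stood below, 190 of them (1.27%) by at least 1. Counts in the 2 directions were thus alike for the order of pools, and far from alike for large differences. With at least 10 counts required in every pool, 404 stood above and 82 below by at least 1.

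Taken over all its tested genes, the B cell list had the largest median difference of the lists. With at least 10 counts required in every pool its median was 2.89, under the 3.12 of the T cell list. Of 26 B cell genes, the marker *Cd79a* among them, 24 stood above by at least 1, against 5.95% of all tested genes. This follows from the choice of the pools. The median fitted difference of the list was 5.09, against 0.03 over all tested genes, and the median was 3.56 in the floxed and 3.93 in the H3atKO pools taken alone. The 2 exceptions, *Vpreb3*, which encodes a protein that binds immunoglobulin chains before they are assembled, and *Blnk*, an adaptor of B cell receptor signalling, had overlapping pools: *Blnk* was higher in floxed replicate 3 (13.5 cpm) than in the rich floxed replicate 1 (9.48 cpm).

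Among the parts of the B cell receptor, the signalling subunit *Cd79b* was at 22.6, 31.2 and 8.91 cpm in the rich and 1.15, 1.43 and 0.663 cpm in the poor pools, with a fitted difference of 4.29. The membrane isotype *Ighd*, carried by mature B cells that have not met antigen, was at 56.9, 287 and 258 cpm against 4.06, 4.59 and 3.67 cpm. The immunoglobulin chains that plasma cells also make differed less. *Ighm* was at 212, 170 and 124 cpm in the rich and still at 38.5, 71.0 and 60.9 cpm in the poor pools, a fitted difference of 1.65, and the light chain *Igkc* at 171, 120 and 35.6 cpm against 15.3, 18.1 and 30.9 cpm, a difference of 2.43. In H3atKO pools the light chain of the lower rich pool was thus close to that of the poor pool, while *Ighd* was at 258 and 3.67 cpm in the same pools.

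The surface proteins of mature B cells were widely separated. *Cr2*, the complement receptor of mature B cells and follicular dendritic cells, was at 8.94, 73.3 and 135 cpm in the rich and 0.144, 0.170 and 0.714 cpm in the poor pools (fitted difference 6.41). *Fcer2a*, the low-affinity IgE receptor of follicular B cells, was at 14.9, 28.8 and 21.6 cpm against 0.433, 0.267 and 0.306 cpm (5.68). *Ms4a1*, which encodes CD20, was at 16.4, 143 and 311 cpm against 0.601, 0.851 and 1.73 cpm (5.66). No rich pool of these genes overlapped a poor pool, but the rich pools themselves differed, with H3atKO replicate 3 above floxed replicate 1 for *Ms4a1* and below it for *Cd79a*. The inhibitory receptors *Cd22* (5.09) and *Siglecg* (4.85), and the survival receptor *Tnfrsf13c* (5.60), which binds BAFF, had fitted differences of the same size. *Tnfrsf13c* had only 5, 3 and 5 counts in the poor pools. *Cxcr5*, the receptor for CXCL13 that takes B cells into follicles, was at 5.53, 12.9 and 6.89 cpm in the rich and 0.289, 0.0972 and 0.204 cpm in the poor pools.

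Transcription factors of the B lineage followed. *Pax5*, which fixes B cell identity, was at 13.4, 50.9 and 70.4 cpm in the rich and 0.192, 0.535 and 0.357 cpm in the poor pools, a fitted difference of 6.08. *Spib*, an ETS factor, and *Pou2af1*, the coactivator that octamer factors use in B cells, differed by 5.88 and 5.36. *Spib* had only 10, 6 and 3 counts in the poor pools.

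T cell genes showed the same split, at a smaller size over all tested genes but not with at least 10 counts in every pool. A poor pool was at or under 3 counts for 7 B cell and 3 T cell genes. Of 30 T cell genes, the markers *Cd3e* and *Ccr7* among them, 28 stood above by at least 1, against 5.95% of all tested genes. This too follows from the choice of the pools. The median was 3.42 for the list, and 2.55 and 3.07 inside the floxed and the H3atKO pools. Among the receptor chains, *Cd3d* was at 5.84, 16.8 and 6.70 cpm in the rich and 0.385, 0.340 and 0.816 cpm in the poor pools, and *Cd3g* at 6.61, 33.3 and 17.4 cpm against 1.59, 0.972 and 3.16 cpm. The constant region of the beta chain, *Trbc2*, was at 12.2, 41.3 and 35.4 cpm against 1.30, 1.24 and 4.03 cpm. *Trac*, the constant region of the alpha chain, was the closest between the pools. It was at 9.09, 21.6 and 17.8 cpm in the rich pools and at 1.39, 0.753 and 13.3 cpm in the poor pools, so in H3atKO replicate 2 it came near the rich pools although *Cd3e* there was at 0.969 cpm. That pool had 261 counts of *Trac* and 19 of *Cd3e*.

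Both main T cell subsets were present. *Cd4* was at 10.8, 26.2 and 20.5 cpm in the rich and 1.11, 1.43 and 2.45 cpm in the poor pools, and *Cd8a* at 10.1, 47.7 and 53.1 cpm against 1.49, 0.608 and 5.35 cpm. *Lef1*, a transcription factor of naive T cells, had the largest difference of the list, 5.28, and its partner *Tcf7* a difference of 4.04. The regulatory T cell factor *Foxp3* stood above as well, but at low levels (1.87, 3.46 and 0.885 cpm against 0.433, 0.0243 and 0.357 cpm).

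The 2 T cell genes with overlapping pools were *Il7r*, the interleukin 7 receptor, and the costimulatory receptor *Cd28*, and in both the overlap came from the floxed pools. *Il7r* was at 9.18 cpm in the rich floxed pool and at 15.2 cpm in floxed replicate 3, and *Cd28* at 3.42 and 5.88 cpm. In the H3atKO pools they were at 140 and 230 cpm against 9.28 cpm, and at 39.2 and 76.8 cpm against 6.17 cpm. With any 1 pool left out, 24 or 25 B cell and 28 to 30 T cell genes stood above by at least 1. Without floxed replicate 1 or H3atKO replicate 2 the order of the pools could be read inside 1 genotype only.

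**Figure D1:**
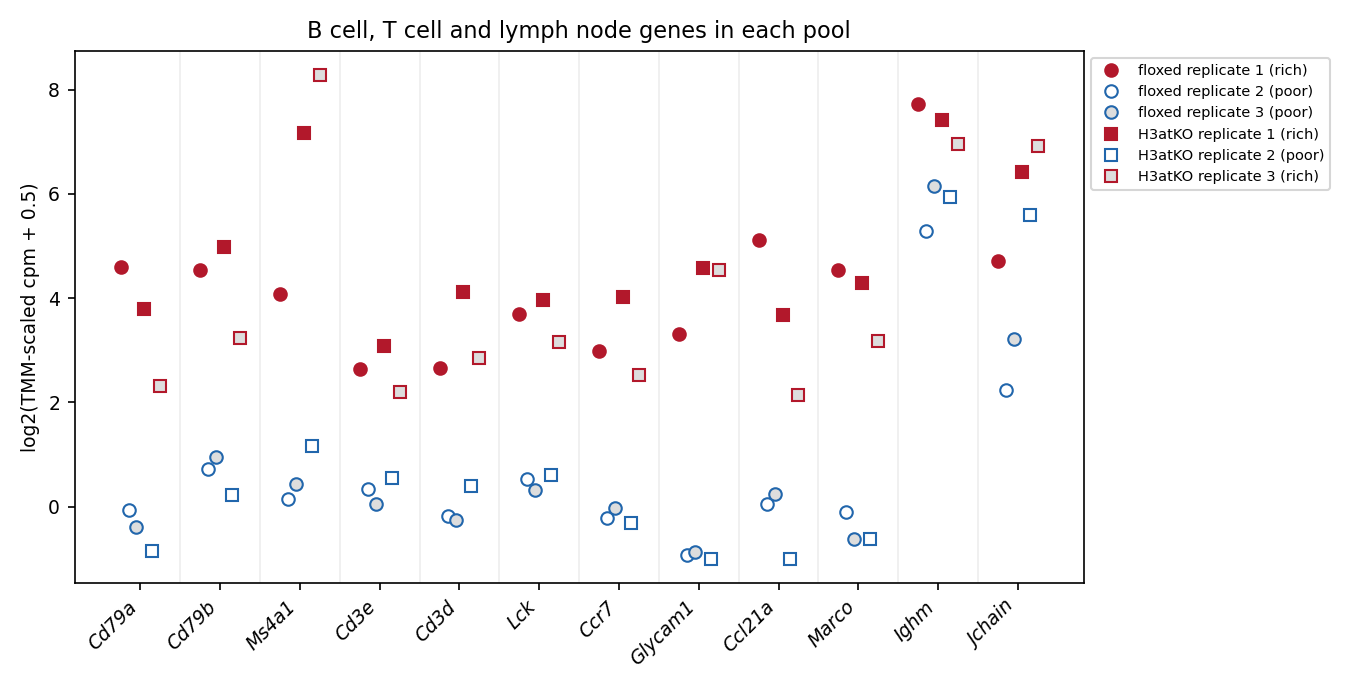
Level of 12 genes in each of the 6 pools, as log2 of the TMM-scaled cpm plus 0.5 on the vertical axis; each symbol is 1 pool, circles are floxed, squares H3atKO, red outlines rich and blue outlines poor pools. The 3 rich pools lie above the 3 poor pools for each gene shown except Jchain, where H3atKO replicate 2 (47.9 cpm) lies above floxed replicate 1 (25.7 cpm).

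Genes of germinal centres, where B cells divide and change their receptors, and of plasma cells, which secrete antibody, followed the pools in part. Of 14 tested genes, 7 stood above by at least 1, against 5.95% of all tested genes, and the list's median was 1.47. *Rgs13*, a germinal centre gene, was at 0.417, 3.58 and 2.02 cpm in the rich pools against 0.0240, 0.243 and 0.102 cpm, and *Gcsam* stood above with a difference of 1.41. *Bcl6*, the master regulator of germinal centre B cells that other cells use too, was at 28.7, 44.1 and 28.8 cpm in the rich and 21.9, 19.6 and 57.8 cpm in the poor pools, with its highest value in a poor pool, and *S1pr2* (-0.08) and *Mybl1* (0.59) overlapped as well.

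Antibody genes of switched classes were uneven between pools. *Ighg2b* was at 22.3, 27.2 and 5.75 cpm in the rich and 3.03, 0.0243 and 3.98 cpm in the poor pools (4.16), and *Igha* at 26.2, 4.53 and 0.443 cpm against 1.71, 0.0486 and 1.58 cpm, so that the poor H3atKO pool lay between the rich ones. *Jchain*, which links secreted IgM and IgA, was at 25.7, 84.5 and 121 cpm in the rich and 4.21, 8.77 and 47.9 cpm in the poor pools, a difference of 1.53. The plasma cell regulators *Prdm1* (-0.04) and *Irf4* (0.46) and the surface marker *Sdc1* (0.48), which other cells of fat express too, overlapped between the pools. *Irf4*, which adipocytes and macrophages also use, was at 179 cpm in the poor floxed replicate 3 and 33.1 cpm in the rich floxed pool.

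Genes listed for lymph node stroma and high endothelial venules came along with the lymphocyte genes in part. Of 18 genes in this list, 17 were measured and 16 passed the level filter. Of these 16, 10 stood above by at least 1, against 5.95% of all tested genes, and 6 overlapped. The 10 include *Lta* and *Ltb*, whose products lymphocytes use, so the count is not of stroma and venules alone. The list's median was 3.40, or 2.77 with *Chst4*, which had 0 counts in every poor pool, set to the bound that 3 counts give. *Glycam1*, a sugar-bearing protein that the venules secrete, was at 9.40, 23.4 and 22.9 cpm (428, 567 and 362 counts) in the rich pools and had 1, 2 and 0 counts in the poor pools. With so few counts in the poor pools no fold is given. *Glycam1* is also a milk protein of the mammary gland, and of the milk casein genes *Csn2* had 2 counts in H3atKO replicate 1 and 0 in the other pools, while *Csn3* had 20, 9 and 71 counts in the rich and 11, 73 and 0 in the poor pools. The part of mammary cells in the *Glycam1* counts was not tested.

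*Chst4*, the sulfotransferase that finishes the sugar ligand in the venules, had 13, 27 and 6 counts in the rich pools, and its 0 counts in the poor pools allow up to 0.0721, 0.0729 and 0.153 cpm, for counting error only. *Fut7*, a fucosyltransferase of the same pathway, was at 0.856, 0.371 and 0.316 cpm against 0.240, 0.219 and 0.0510 cpm. *Ackr1*, which venules of many tissues express, did not follow and was at 7.77, 2.92 and 1.20 cpm in the rich and 7.77, 9.87 and 0.969 cpm in the poor pools.

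The chemokines of the T cell zone were higher in all rich pools. *Ccl21a* was at 34.2, 12.4 and 3.92 cpm in the rich pools and at 0.529, 0.681 and 0.00 cpm in the poor pools. *Ccl19* was at 3.07, 0.741 and 0.190 cpm against 0.0962, 0.0243 and 0.00 cpm, where the value of H3atKO replicate 3 is 3 counts. *Cxcl13*, the chemokine of the follicle, went another way. It was at 16.8, 125 and 148 cpm in the rich and 4.35, 223 and 22.6 cpm in the poor pools, and the highest value of all was in floxed replicate 3, a poor pool.

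Of the lymphotoxin genes, whose products lymphocytes use to organise the stroma, *Ltb* was at 11.7, 2.64 and 0.569 cpm in the rich and 0.409, 0.0486 and 0.0510 cpm in the poor pools, and *Lta* stood above with a difference of 3.40. Their receptor *Ltbr*, which stromal and other cells carry, overlapped (1.26). *Marco*, a scavenger receptor of the macrophages that line lymph node sinuses, was at 22.8, 18.9 and 8.60 cpm in the rich and 0.433, 0.146 and 0.153 cpm in the poor pools (6.37), although macrophage genes in general did not follow the pools. *Siglec1*, a receptor of sinus macrophages that is also found on other macrophages, overlapped (0.25). *Coch*, an extracellular protein made by follicular dendritic cells, and *Tnfsf11*, the cytokine RANKL, stood above with differences of 3.40 and 4.64. In the poor pools *Lta* had 7, 6 and 2 counts, *Coch* 3, 7 and 4 and *Tnfsf11* 3, 0 and 3, so these have no stable fold.

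Lymphatic endothelium was less clear. *Prox1*, the factor that sets lymphatic identity, was at 1.56, 6.63 and 18.0 cpm in the rich and 0.409, 2.28 and 1.38 cpm in the poor pools, and *Lyve1* at 33.4, 43.5 and 79.6 cpm against 15.1, 109 and 9.28 cpm. Both overlapped through floxed replicate 3. Of 7 genes, *Ccl21a*, *Ackr4*, a chemokine scavenger, and *Flt4*, the receptor for VEGF-C, stood above, against 10.4% of all tested genes. *Flt4* did so by 0.89 and was thus under the limit of 1.

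Antigen presentation genes differed by unequal amounts. Of 10 genes of the MHC class II pathway, 8 stood above, against 10.4% of all tested genes. By at least 1, 5 stood above, against 5.95%, and the list's median was 1.71. *H2-Ob* and *H2-Oa*, the chains of a regulator of peptide loading found mainly in B cells, differed by 4.52 and 4.91. *H2-Oa* has no stable fold, with 5, 1 and 2 counts in the poor pools and 3 in H3atKO replicate 3. Its difference was 3.15 inside the floxed and 0.79 inside the H3atKO pools. *H2-DMb2*, a chain of the loading factor, differed by 4.43. *H2-DMa*, the other chain of that factor, and *Ciita*, the activator of class II genes, differed by 2.28 and 2.02. *H2-Ob* was at 18.4, 91.1 and 120 cpm in the rich and 1.35, 1.26 and 2.40 cpm in the poor pools. The class II chains *H2-Aa* (0.63) and *H2-Ab1* (0.89) stood above by less, and *Cd74* (1.41), the invariant chain, and *H2-Eb1* (0.95) overlapped. *H2-Aa* was at 271, 255 and 158 cpm in the rich and 176, 177 and 129 cpm in the poor pools.

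Genes of leukocytes in general were intermediate. Of 15, 8 stood above by at least 1, against 5.95% of all tested genes, with a median of 1.58. *Coro1a*, an actin regulator, was at 43.7, 20.6 and 6.57 cpm in the rich and 6.47, 6.20 and 2.35 cpm in the poor pools. *Ptprc*, which encodes CD45, overlapped, since floxed replicate 3 was at 85.9 cpm and floxed replicate 1 at 58.0 cpm, and so did *Lcp1* (213 and 76.0 cpm) and *Cd53* (107 and 27.3 cpm). *Ikzf3*, a lymphocyte transcription factor, and *Rac2*, a small GTPase of blood cells, stood above by 3.18 and 2.30.

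Dendritic cell genes followed the pools in part. *Ccl22*, a chemokine of activated dendritic cells, was at 8.28, 30.8 and 21.6 cpm in the rich and 0.337, 0.486 and 2.45 cpm in the poor pools (3.86), and *Fscn1*, an actin bundler of dendritic cells that move to lymph nodes, differed by 2.15. *Xcr1* (1.03) and *Clec9a* (0.89), markers of cross-presenting dendritic cells, and *Itgax* (0.73) overlapped. In all, 4 of 9 tested genes stood above by at least 1, against 5.95% of all tested genes, with *Flt3* and *Batf3* as the others.

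Cytotoxic and natural killer cell genes were few. Of 11 tested, *Ccl5*, a chemokine of activated T cells, *Nkg7*, a granule protein, and *Eomes*, a transcription factor, stood above by 2.48, 1.85 and 1.52. The list's median was 0.56, and over all tested genes 5.95% stood above by at least 1. The natural killer receptors *Ncr1* (0.02) and *Klrb1c* (-0.06) and the granzymes *Gzma* (-0.43) and *Gzmb* (-0.28) overlapped. Of 8 tested neutrophil and mast cell genes, 1, *Cxcr2*, stood above by at least 1, against 5.95% of all tested genes, and *S100a9* stood above by 0.66. *Cxcr2* was at 0.527, 6.01 and 10.6 cpm in the rich and 0.144, 0.122 and 0.204 cpm in the poor pools, while the neutrophil genes *Ly6g* (0 or 1 count) and *Retnlg* (up to 0.216 cpm) were near 0.

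**Figure D2:**
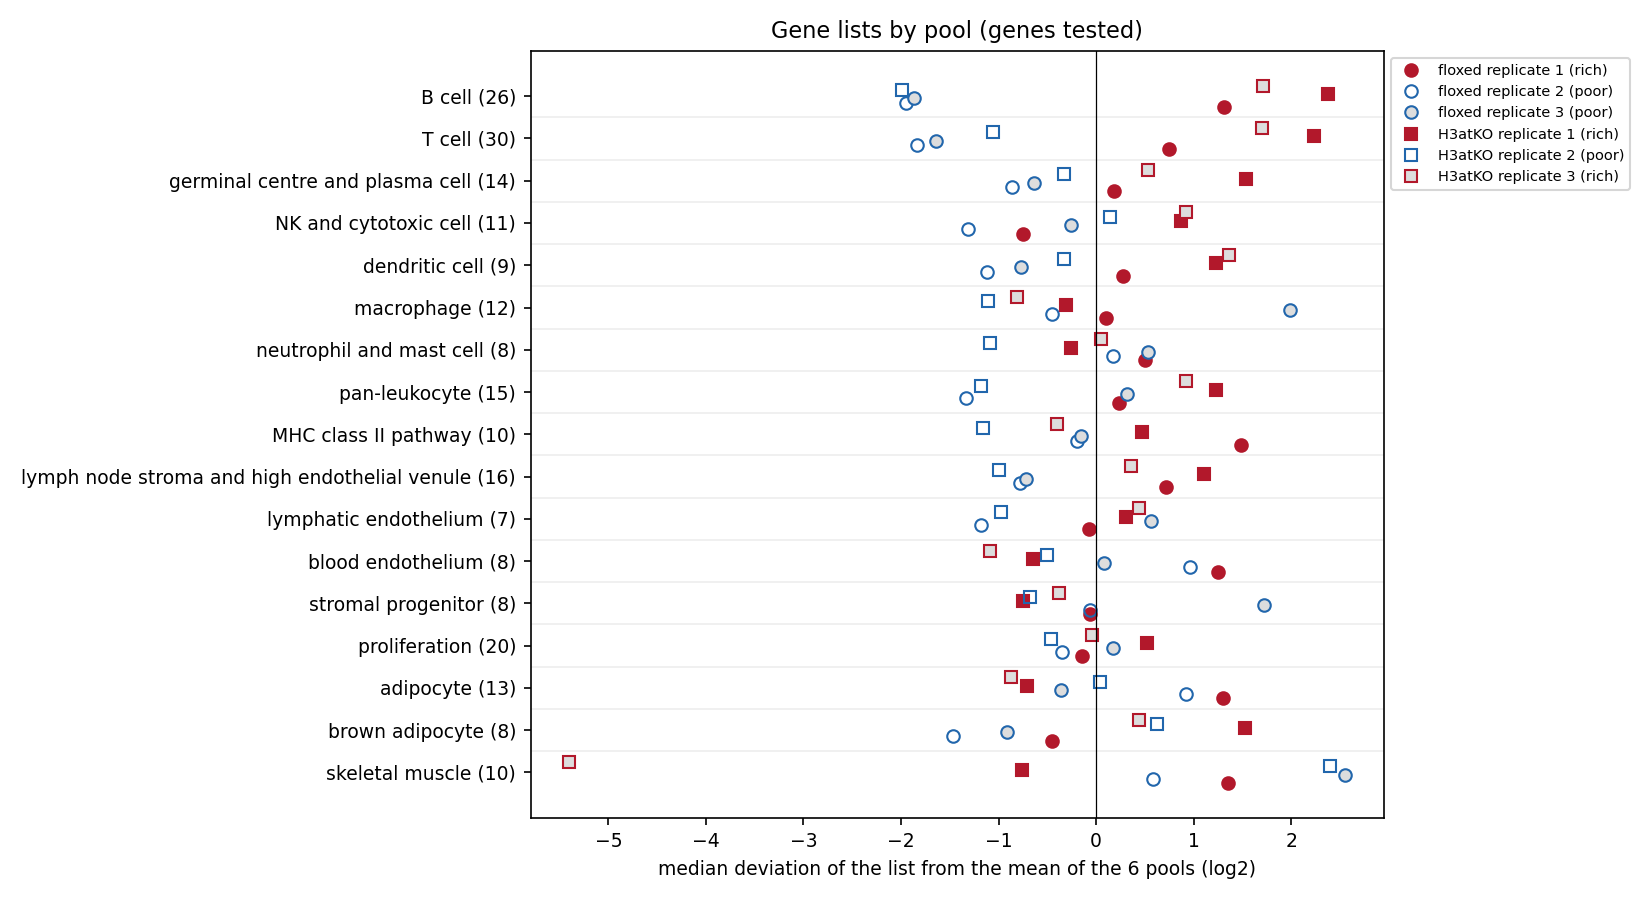
For each gene list (number of tested genes in brackets), the median over its genes of the deviation of a pool from the mean of the 6 pools, in log2, on the horizontal axis; symbols as in the plot of gene levels. The rich pools lie to the right of the poor pools for B cell, T cell, germinal centre and plasma cell, dendritic cell and lymph node stroma genes, and not for macrophage, endothelial, stromal, adipocyte or muscle genes, with H3atKO replicate 3 at -5.40 for muscle.

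Macrophage genes, by contrast, gave no split. None of 12 stood above by at least 1, against 5.95% of all tested genes, and the list's median was 0.10. *C1qc*, a complement subunit made by tissue macrophages, stood above by 0.67, and the other 11 overlapped. *Lyz2*, the lysozyme of macrophages, was at 311, 338 and 283 cpm in the rich and 202, 1277 and 154 cpm in the poor pools. The list's summed level was 813, 638 and 678 cpm in the rich and 509, 2577 and 387 cpm in the poor pools, so the highest total was in floxed replicate 3.

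Stromal progenitor genes overlapped in all 8 cases, with a median of -0.16, and floxed replicate 3 was again the highest pool (*Col3a1* at 3997 cpm there against 447 to 715 cpm in the others). Of 8 blood endothelial genes none stood above, and *Tek* (-0.36) and *Emcn* (-0.42) stood below, against 9.14% of all tested genes. Proliferation genes had a median of 0.46, and 3 of 20, the replication licensing subunits *Mcm2*, *Mcm3* and *Mcm5*, stood above, 2 of them by at least 1. That is near the 10.4% and 5.95% of all tested genes. *Mki67*, a marker of dividing cells, was at 12.0, 43.0 and 26.3 cpm against 6.47, 21.8 and 12.5 cpm and overlapped in the floxed pools.

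Adipocyte genes showed no common difference. Their median over 13 genes was -0.13, with 0.86 inside the floxed and -0.96 inside the H3atKO pools. None stood above and 1 stood below, against 10.4% and 9.14% of all tested genes. That gene was *Lpl*, the lipoprotein lipase, with a fitted difference of -0.50. *Adipoq* was at 2647, 1266 and 2092 cpm in the rich and 2478, 1916 and 2876 cpm in the poor pools. *Lep*, the leptin gene, was at 1051, 15.0 and 184 cpm against 1031, 93.5 and 282 cpm. Rich minus poor, it differed by 1.76 inside the floxed and by -2.40 inside the H3atKO pools, so the fitted difference of -0.39 joins opposite signs.

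*Ucp1*, the uncoupling protein of thermogenic fat cells, was the 1 brown fat gene of 8 that stood above, against 10.4% of all tested genes. It was among the 20 largest differences of genes that stood above and had a symbol and a mean of at least 1 log2 cpm. It was at 12.6, 158 and 11.5 cpm in the rich and 0.577, 3.33 and 1.33 cpm in the poor pools, a fitted difference of 3.96. The value of H3atKO replicate 1 was far above that of any other pool. With the replicate number as a block, which leaves the pools numbered 3 to carry the contrast, the difference turned to -1.53. Other thermogenic genes did not follow: *Cidea* was at 43.1, 173 and 49.6 cpm against 13.4, 28.6 and 64.8 cpm, and *Elovl3* at 4.22, 722 and 172 cpm against 0.216, 0.972 and 283 cpm, both with overlap, and *Ppargc1a* stood below by 0.82.

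Skeletal muscle genes marked the pools in another way. The 10 genes of the list all overlapped, with a median of -2.35, since H3atKO replicate 3 had almost none. Their summed level was 1337, 457 and 3.22 cpm in the rich and 732, 3211 and 3936 cpm in the poor pools. *Myh4*, a fast myosin, was at 135, 264 and 1.01 cpm against 103, 1448 and 2068 cpm. Within the floxed pools the list differed by a median of -0.23 and within the H3atKO pools by -5.58, so the muscle difference was carried by the H3atKO pools.

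**Figure D3:**
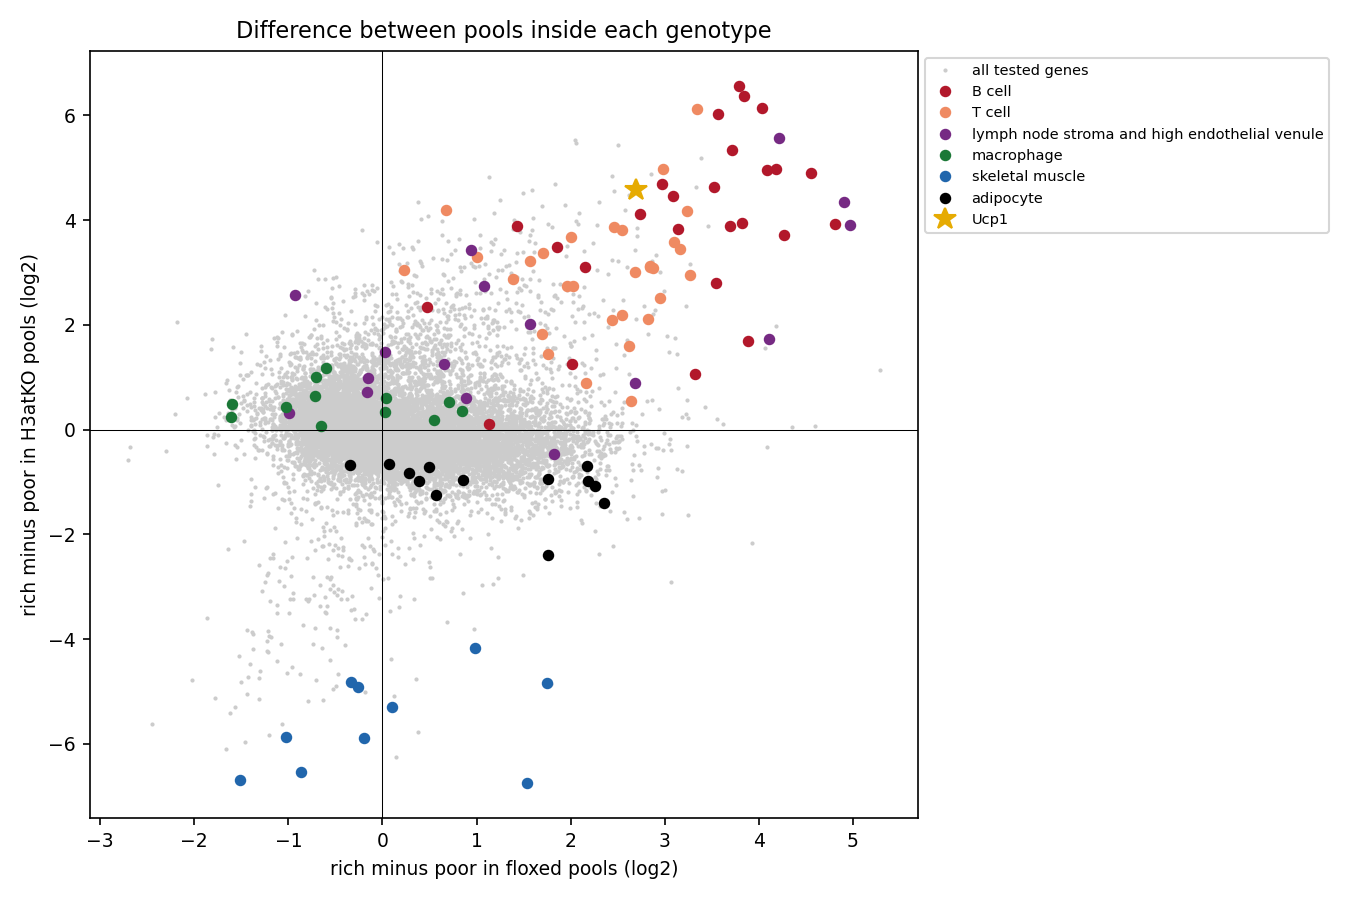
Difference of rich minus poor pools inside the floxed (horizontal axis) and inside the H3atKO pools (vertical axis), in log2 of cpm plus 0.5; each point is 1 gene, grey points are all 14967 tested genes and colours mark 6 gene lists and Ucp1. B and T cell genes lie in the upper right with medians of 3.56 and 3.93, and 2.55 and 3.07, muscle genes lie low on the vertical axis (median -5.58) and near 0 on the horizontal one (median -0.23), and most adipocyte genes are to the right of 0 and below it.

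The 20 largest differences among genes that stood above and had a symbol and a mean of at least 1 log2 cpm were mostly members of the lists, among them *Cr2*, *Pax5*, *Fcer2a*, *Ms4a1*, *Pou2af1*, *Cd22*, *Siglecg*, *Ighd*, *Cd79b* and *Fcrla* of the B cell list, *Tcf7* and *Bcl11b* of the T cell list, *H2-Ob* and *H2-DMb2*, *Ighg2b* and *Ucp1*. The 2 that no list held were *Apol7c*, an apolipoprotein L gene, and *Btla*, an inhibitory receptor of B and T cells. *Apol7c* was at 6.59, 45.8 and 18.8 cpm in the rich and 0.192, 0.219 and 0.714 cpm in the poor pools (5.13). *Btla* was at 14.4, 163 and 252 cpm against 1.54, 2.89 and 4.23 cpm (4.10).

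Among genes that stood below, under the same limits, the 10 largest differences were mostly of known muscle genes, none of them in the lists, whose muscle members overlapped and so were not eligible: *Mylk4* (-4.60), *Trdn* (-4.32), *Klhl31* (-4.14), *Myot* (-3.96), *Ppp1r3a* (-3.94), *1110002E22Rik* (-3.71), *Neb* (-3.48), *Sh3bgr* (-3.46), *Cmya5* (-3.30) and *Lrrc2* (-3.28). *Trdn*, which encodes the calcium release protein triadin, was at 10.5, 29.2 and 0.506 cpm in the rich and 10.9, 105 and 371 cpm in the poor pools. *Neb*, the giant thin filament protein nebulin, was at 43.8, 85.9 and 4.49 cpm against 47.9, 380 and 885 cpm. For both, floxed replicate 1 and floxed replicate 2 lay close together, so that in the floxed pools only replicate 3 stood apart.

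The rich pools were not alike. Over the B cell list, H3atKO replicate 1 stood a median of 0.99 (log2 of cpm plus 0.5) above floxed replicate 1, with 19 of 26 genes higher, while H3atKO replicate 3 stood 0.24 above it, with 14 genes higher. Over the T cell list the medians were 1.41 (26 of 30 genes higher) and 1.06 (19 genes higher). The range within a list was wide: between H3atKO replicate 3 and floxed replicate 1, B cell genes differed by -2.43 to 4.20 and T cell genes by -2.46 to 4.58.

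These differences moved with the GC content of the genes. Across the 56 B and T cell genes, Spearman's rho between the GC content of the longest transcript and the difference was -0.755 for H3atKO replicate 3 against floxed replicate 1, -0.731 for H3atKO replicate 1 against floxed replicate 1 and -0.671 between the rich H3atKO pools. These are correlations across genes, which are not independent replicates, and the points share their libraries. Over all 14922 genes with a GC value, the deviation of a pool from the mean of the 6 correlated with GC content at 0.800, 0.623 and 0.0969 in floxed replicates 1 to 3 and at -0.433, -0.504 and -0.711 in H3atKO replicates 1 to 3, and the fitted difference of rich minus poor pools at 0.518. Inside the floxed pools the rich pool had the highest of these correlations, and inside the H3atKO pools the poor pool lay between the rich ones. The part of GC content in the differences between rich and poor pools was not tested.

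*Ms4a1*, with a GC content of 40.6%, was at 16.4 cpm in floxed replicate 1 and 311 cpm in H3atKO replicate 3, and *Cd79a*, with 54.9%, at 23.6 and 4.49 cpm. With each pool corrected for GC by a smooth curve, the medians of H3atKO replicate 3 against floxed replicate 1 became 1.35 for B and 1.62 for T cell genes. For these lists the differences between rich and poor pools changed little under the same correction, with medians of 4.87 and 3.16. Over all genes, 703 stood above and 273 below by at least 1 with the correction, against 890 and 190 without it. Which of these orders of the rich pools is nearer to their lymphocyte content was not tested.

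**Figure D4:**
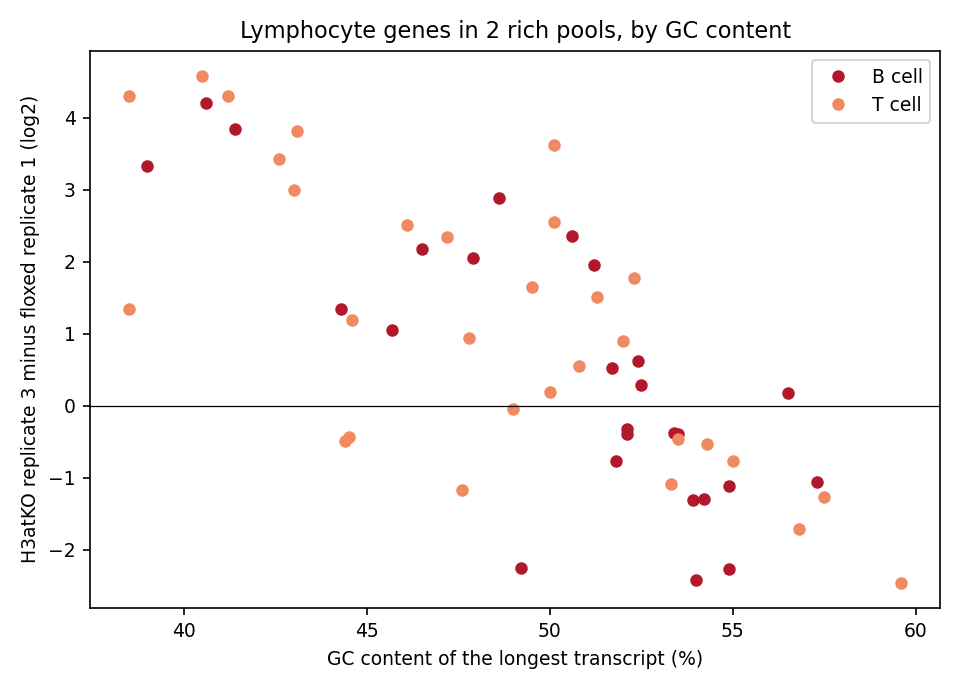
Difference between H3atKO replicate 3 and floxed replicate 1, both rich pools, in log2 of cpm plus 0.5 (vertical axis) against the GC content of the longest transcript in percent (horizontal axis) for 26 B cell and 30 T cell genes; each point is 1 gene. The points fall from the upper left to the lower right (Spearman's rho -0.755 over 56 genes).

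Between the genotypes, which the labels give and the choice of pools did not use, limma voom called 1410 genes higher (9.42%) and 1058 lower (7.07%) in H3atKO pools at an adjusted p under 0.05. Of the 56 B and T cell genes 1 was called. It was *Trac*, with 3.75 ± 4.64 cpm (SD, n = 3) in floxed and 17.6 ± 4.16 cpm (SD, n = 3) in H3atKO pools, higher by 3.00 (SE 0.79, adjusted p = 0.0437 by limma). The groups of *Trac* did not overlap, and the call was lost without floxed replicate 2 (adjusted p = 0.145), H3atKO replicate 1 (0.105), H3atKO replicate 2 (0.0724) or H3atKO replicate 3 (0.133). It was also lost with the GC correction (0.0734) and in edgeR's quasi-likelihood test (0.0853).

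The B and T cell lists leaned towards H3atKO without passing the test. The median difference of H3atKO minus floxed was 1.69 for the B cell list, with 24 of 26 genes positive and none called. It was 2.47 for the T cell list, with 28 of 30 positive. Over all 14967 tested genes the median was -0.09, with 7112 positive. At an unadjusted p under 0.05, limma counted 0 B cell and 9 T cell genes, against 6562 of all 14967. At its adjusted p, edgeR's quasi-likelihood test called 1 and 5 higher, against 12.8% of all genes. DESeq2 called 17 of both lists together higher, against 2935 of the 14967 genes of the whole table. The rich pools were 2 of the H3atKO and 1 of the floxed pools, and with the class as a covariate the medians fell to 0.52 for the B cell and 1.30 for the T cell list. With library sizes alone the median over all genes moved from -0.09 to -0.94, and the medians of the lists to 0.77 and 1.54, with 18 and 25 genes positive.

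*Cd79a* itself was at 8.11 ± 13.4 cpm (SD, n = 3) in floxed and 5.97 ± 6.79 cpm (SD, n = 3) in H3atKO pools, a difference of 0.21 (adjusted p = 0.949 by limma) that changed sign with the fit. *Cd3e* (1.25, adjusted p = 0.389) and *Ccr7* (1.44, adjusted p = 0.512) were not called either. With the replicate block *Ccr7* was at an adjusted p of 0.0563 by limma, and it was called when GC was corrected too (2.55, adjusted p = 0.0252). Each of these groups of 3 holds both rich and poor pools.

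The count of B and T cell genes called between genotypes moved with what was in the model. It was 1 with genotype alone, 27 higher with the replicate number as a block, 22 higher and 1 lower with the class of the pool as a covariate, and 12 higher with the class and the GC correction together. Over all genes the block gave 3717 higher (24.8%) and 4290 lower (28.7%), 53.5% in both directions together. The class covariate gave 1608 (10.7%) and 2231 (14.9%), 25.6% together. The GC correction gave 835 (5.60%) and 464 (3.11%), 8.71% together, with the block 1942 (13.0%) and 1448 (9.70%), 22.7% together, and with the class 599 (4.01%) and 283 (1.90%), 5.91% together. The class was chosen on these very genes, which takes their spread out of the error, so the larger counts with it are no evidence that lymphocyte genes changed with genotype. The block rests on numbers that the labels do not give as pairs. Numbers 1 and 2 also followed the split, so its larger counts are no such evidence either. Of the 2468 genes called with genotype alone, 2338 were also called with the class covariate and 522 with the class and the GC correction.

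Members of other lists were called too. Higher in H3atKO pools were *Jchain* (2.97, SE 0.64, adjusted p = 0.0310 by limma), the dendritic cell genes *Xcr1* (2.90) and *Clec9a* (2.69), the natural killer receptor *Klrk1* (2.42) and the transcription factor *Mybl1* (2.21). Lower were *Sdc1*, a heparan sulfate proteoglycan (-1.87), the macrophage genes *Csf1r*, *C1qa*, *C1qb* and *C1qc* (-1.96 to -3.47), the mast cell genes *Kit* and *Tpsb2*, *Ackr1* (-2.40), and the endothelial genes *Pecam1*, *Cdh5* and *Egfl7* (-1.57 to -2.55). *Jchain* was at 12.9 ± 11.3 cpm (SD, n = 3) in floxed and 84.6 ± 36.6 cpm (SD, n = 3) in H3atKO pools, and the lowest H3atKO value was that of the poor pool.

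Fat and stromal members of the lists were called as well: *Elovl3* (8.35), *Dio2* (5.78), *Ppara* (2.05) and *Lpl* (2.02) were higher, and *Cfd* (-3.99), *Pi16* (-4.91) and *Col15a1* (-1.95) lower, with *Alas2* and *S100b* among the erythroid and Schwann cell genes. The Y-linked *Ddx3y*, *Eif2s3y* and *Uty* were higher by 1.40 to 1.57 and not with the GC correction (adjusted p = 0.605, 0.493 and 0.264 by limma). With the GC correction, 786 of the 2468 calls over all genes were kept, and a like share, 10 of 31, among list members and *Hdac3*. The other 21 of these 31 were lost. Among the higher genes these were *Jchain* (1.83, adjusted p = 0.131 by limma), *Klrk1* (1.03, 0.157), *Mybl1* (1.02, 0.209), *Xcr1*, *Clec9a*, *Dio2* and *Lpl* (0.0516 to 0.0700). Among the lower genes they were *C1qc* (-0.13, adjusted p = 0.912 by limma), *C1qa* (-0.51, 0.743), *Csf1r* (-1.19, 0.201), *C1qb* (-1.67, 0.222), *Sdc1* (-0.53, 0.296), *Col15a1* (-0.37, 0.265), *Alas2* (-0.86, 0.204), *Cdh5* (0.0711) and *Egfl7* (0.0947). *Elovl3*, *Ppara*, *Cfd*, *Pi16*, *Pecam1*, *Ackr1*, *Kit*, *Tpsb2* and *S100b* were still called. Every call named in these paragraphs was lost with floxed replicate 2 left out (adjusted p from 0.0516 to 0.153 by limma), when 1 gene of the whole table was called higher and 0 lower. The counts were also at most 395 higher and 139 lower without floxed replicate 1 or any H3atKO pool, and 2729 and 3828 without floxed replicate 3.

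**Figure D5:**
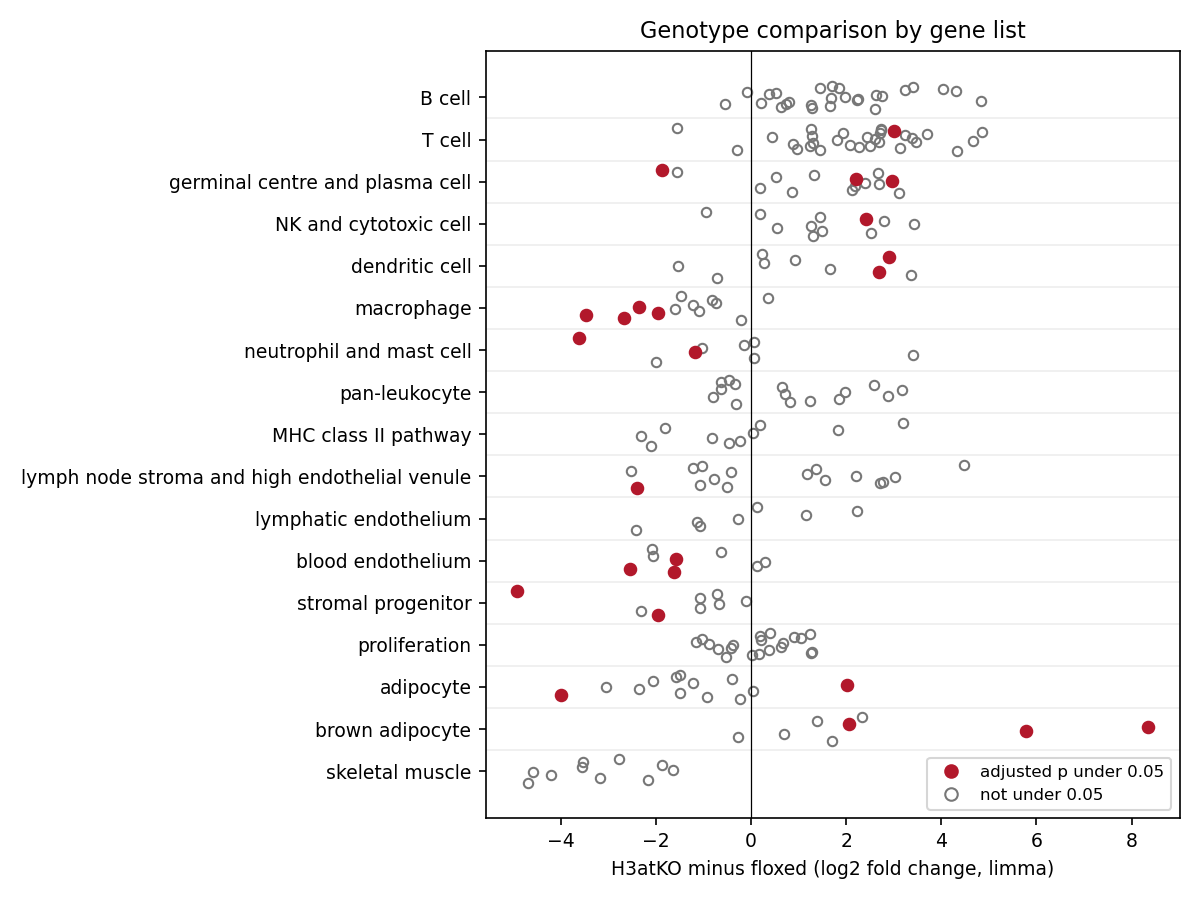
Difference of H3atKO minus floxed pools (log2 fold change of limma, horizontal axis) for the genes of 17 lists; each point is 1 gene, filled red where the adjusted p is under 0.05. B and T cell genes lie mostly to the right of 0 (medians 1.69 and 2.47) and all but Trac are open, while macrophage and endothelial genes lie mostly to the left with 4 and 3 filled points.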

How the data were processed

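Per the labels and the study's methods, stranded poly(A) libraries were trimmed with cutadapt 1.3, aligned to GRCm38 with STAR 2.4.2a and counted on genes with HTSeq 0.6.1. The authors deposited 1 table of raw counts per pool, neither normalized nor filtered, for 46517 genes and 5 tallies of uncounted reads, which were left out. GENCODE M21 gave symbols, positions and GC content for 46005 genes. PCR copies were not marked, so limits from counts cover counting error only.

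The pools were split by their lymphocyte genes, and the split, the gene lists and the tests were chosen with earlier results of these data known. Genes reaching 1 cpm (counts scaled to a common library total) in any pool were fitted with limma 3.58.1 (voom, TMM factors from edgeR 4.0.16, Benjamini-Hochberg adjustment over 14967 genes). A model on genotype gave the test at an adjusted p under 0.05, and a model on genotype and class (rich or poor) gave the fitted difference, as a coefficient only. Differences inside a genotype are differences of mean log2(cpm + 0.5). In simulated data with known changes, which had 14310 genes, the genotype fit recovered 1.47%, 22.7% and 66.7% of genes changed by 1, 2 and 3 on the log2 scale, with 5 unchanged genes called, and fitted class differences followed the true ones with a slope of 1.03. The simulated pools had no GC trend, few class differences and a spread estimated with class in the model. These rates therefore do not describe the fit on the real pools. The GC correction subtracted a loess curve (span 0.3) from each pool. Alternatives used DESeq2 1.42.0, edgeR's quasi-likelihood test, other filters and scalings, and each pool left out. Labels give no separate batch, and p-values measure the spread between these pools.

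Named were the 3 marker genes, *Hdac3*, up to 4 genes of highest mean cpm and all members standing above or below in each list, list members called between genotypes, and the 20 largest and 10 smallest fitted differences among genes standing above and below with a symbol and a mean of at least 1 log2 cpm. A few genes that this rule names are not reported here. Other list members given as examples of overlap were added after their values were seen. Same-numbered pools deviated together from their group means (r = 0.510, 0.389 and 0.264 for numbers 1 to 3 over 14967 genes). No such value is given for pools with different numbers, and the labels do not give the numbers as pairs. Some same-numbered pools also shared a class, rich or poor. Whether the numbers pair the pools was therefore not tested, and the replicate block is an alternative fit only. No test of a list's summed level was made, and no p for a list is given.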

Additional observations from a re-analysis of the deposited data

Results flagged for a closer look

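Endothelial and adipocyte genes went opposite ways in the 2 genotypes. The summed cpm of the blood endothelial list had a log2 ratio of rich to poor pools of 0.49 in floxed and -0.40 in H3atKO pools, and that of the adipocyte list a ratio of 0.57 and -0.62, with every rich pool on the same side of every poor pool inside each genotype. Neither difference between the genotypes was tested. For the endothelial list the sums were 1148 cpm in the rich against 947 and 682 cpm in the poor floxed pools, and 462 and 459 cpm in the rich against 609 cpm in the poor H3atKO pool. For the adipocyte list they were 47125 against 38001 and 25653 cpm in floxed pools, and 37249 and 64922 against 78412 cpm in H3atKO pools.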

How the results depend on the processing

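The median difference of rich minus poor pools stayed positive for B and T cell genes under all alternatives run, from 2.89 (at least 10 counts in every pool) to 5.48 for B and from 2.52 (mean cpm of the pools) to 3.64 for T cell genes. Values that moved were 2.89 (10 counts), 4.45 (replicate block), 3.86 (mean cpm) and 4.56 (without H3atKO replicate 2) for B cell genes. For T cell genes they were 3.12 (10 counts), 3.01 (replicate block) and 2.52 (mean cpm). Leaving out 1 pool at a time gave 4.56 to 5.48 for B and 3.27 to 3.64 for T cell genes. Genes standing above and below by at least 1 (890 and 190) were 1470 and 551 with no low-count filter, 404 and 82 with 10 counts, 463 and 69 at a difference of 2, and 799 to 2707 above and 226 to 1072 below over the fits that left out 1 pool, where leaving out floxed 1 (1594 and 1072) or H3atKO 2 (2707 and 692) left the order of pools to 1 genotype. The replicate block gave 340 below and turned *Ucp1* to -1.53.

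Genes called higher and lower in H3atKO (1410 and 1058) became 306 and 5667 with library sizes alone, which takes the higher share of calls from 57.1% to 5.12%, 3717 and 4290 with the replicate block, 835 and 464 with the GC correction, 2935 and 3465 in DESeq2 and 65 and 17 at an adjusted p under 0.01. Lower genes were 1864 with 10 counts, 2231 with the class covariate and 2749 in edgeR's quasi-likelihood test. With class and GC correction, an alternative chosen after seeing the data, they were 599 and 283. Leaving out 1 pool gave 1 to 2729 higher and 0 to 3828 lower. B and T cell genes called higher (1) were 0 with library sizes alone, no filter, the GC correction or p under 0.01, 27 with the replicate block and 23 with block and GC correction, 22 (and 1 lower) with the class covariate, 12 with class and GC correction, 6 in edgeR, 17 in DESeq2 and 0 to 13 without 1 pool.

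The genotype difference of *Cd79a* (0.21) turned to -0.83 with library sizes alone, -0.16 with the block, -1.62 with the class covariate, -0.44 in edgeR, -0.39 in DESeq2 and to -0.62, -0.97, -1.51 and -0.31 without floxed 2, floxed 3, H3atKO 1 and H3atKO 3 (range over all single pools left out -1.51 to 2.37), and *Cd3e* to -0.51 with class and GC correction. The cause of these changes was not tested. All p-values rest on 3 pools per genotype, and genes near 3 counts in a poor pool have no stable fold.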

Other observations

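Gene families sharing a symbol prefix were looked at after the data were seen, and are given as descriptions. Over all tested genes, 10.4% stood above, 5.95% by at least 1, and 9.14% stood below. All 9 measured genes with a *Gimap* symbol, 8 for small GTPases of lymphocytes and the opposite-strand transcript *Gimap1os*, stood above in rich pools inside both genotypes, 6 of them by at least 1, with a median difference of 1.12. *Gimap3* was at 33.6, 98.6 and 119 cpm in the rich and 6.57, 3.99 and 12.2 cpm in the poor pools, a difference of 2.91 with no overlap. Of 4 *Fcrl* genes, Fc receptor-like proteins, 3 stood above (median 3.96), as did 3 of 5 *Slamf* genes (median 0.88) and 2 of 4 *Siglec* genes (median 1.28). *Slamf6*, a lymphocyte surface receptor, was at 6.08, 53.7 and 67.5 cpm in the rich and 0.529, 1.24 and 2.50 cpm in the poor pools. The interferon-induced *Gbp* genes (2 of 11 above, with 1 below, median 0.11) and the tubulin *Tubb* genes (1 of 6, median 0.79) were near the share of all genes. So were the cytochrome P450 *Cyp* genes (3 of 29, with 2 below, median 0.01).

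Among lists of cells that could be carried along with the fat, 3 of 6 Schwann cell genes stood below in rich pools, against 9.14% of all tested genes. *Pmp22* (-0.59) was among them, and the median of the list was -0.28. Of 5 epithelial genes tested 1 stood above, against 10.4% of all tested genes, and the median was 1.33. That gene was *Krt18*, with 1.43, 0.124 and 0.379 cpm in the rich and 0.144, 0.535 and 0.000 cpm in the poor pools. None of 5 erythroid genes (median 0.47) and none of 4 sex-linked genes (median -0.26) stood above or below.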
